A study of Mus musculus with 2 samples.

Results

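The genes described here encode proteins that make, activate or inactivate steroid hormones. They were the rows of the deposited count table whose symbol was Star, Cyp11a1, Fdx1, Cyp17a1, Sts, Srd5a1, Srd5a2, Srd5a3, Hsd11b1 or Hsd11b2. Of these 10 genes 9 were found among the 27376 genes of the table, and Sts, the steroid sulfatase gene, was not analysed here because no row matched its symbol. RNA was sequenced from fresh prostate tumour tissue of mice aged 16 months, with 1 library of the genotype Bcat_Only and 1 of the genotype Met_Bcat. The heading of the Bcat_Only column names a beta-catenin allele, Bcat_ex3Plus, and a PB_Cre driver, and the probasin (PB) promoter directs Cre to prostate epithelium. The heading of the Met_Bcat column names no allele, and the labels do not say which MET allele was used or whether both genotypes carried the same Cre. The series title places the comparison in a study of HGF/MET signalling and beta-catenin in prostate tumours. Because each genotype had 1 library, nothing measures the spread between animals, no test was made, and each difference below is one between these 2 libraries.

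Steroid synthesis starts when STAR carries cholesterol to the inner mitochondrial membrane, where the cytochrome P450 CYP11A1 cuts its side chain to give pregnenolone with electrons from ferredoxin (FDX1). CYP17A1 then turns the products toward androgens. Adrenal cortex and gonads run this sequence in full, whereas the prostate is known mainly for converting circulating hormone. Its 5-alpha reductases turn testosterone into dihydrotestosterone, the stronger androgen, and the 11-beta-hydroxysteroid dehydrogenases activate (HSD11B1) or inactivate (HSD11B2) glucocorticoids.

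The libraries held 19301062 reads assigned to genes in Bcat_Only and 20117724 in Met_Bcat. The genes in the genotype names had like levels, with Met at 169 and 166 CPM and Ctnnb1 at 981 and 974 CPM, although a gene total cannot show an allele that lacks an exon or a transgene of another species. Counts are given as CPM, the usual depth-scaled read count, with library sizes corrected by TMM, and levels are compared between genes as RPKM, the same value per kilobase of exon. Each ratio carries a 95% exact interval and each level an exact Poisson interval, which cover counting error only, since each genotype had 1 library. PCR copies were not distinguished from separate molecules, so the intervals may be too narrow even for that error. A gene was called higher or lower when its mean was at least 1 CPM and the interval lay wholly beyond 2-fold, its nearer end included. Of the 9 genes 6 reached that mean. Cyp17a1, at a mean of 0.963 CPM, lay just below it, and Hsd11b2 and Srd5a2 lay further below.

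Under TMM, Cyp11a1 was 30.7-fold higher in Met_Bcat, Star was 10.4-fold lower and Hsd11b1 was 4.95-fold lower. The ratios of Srd5a1, Srd5a3 and Fdx1 were at most 1.34-fold under that scaling. Thus 1 gene was called higher, where 4.42% of the 14354 genes tested were, and 2 were called lower, where 14.6% were. Over all genes these shares stand for 635 higher and 2102 lower genes, which became 376 and 2855 under scaling to luminal epithelial markers. The 6 genes had a median log2 ratio of CPM plus 0.5 of −0.17, against 0.03 over all genes tested. In bulk tissue, fewer cells of a type and less RNA per cell cannot be told apart.

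**Figure D1:**
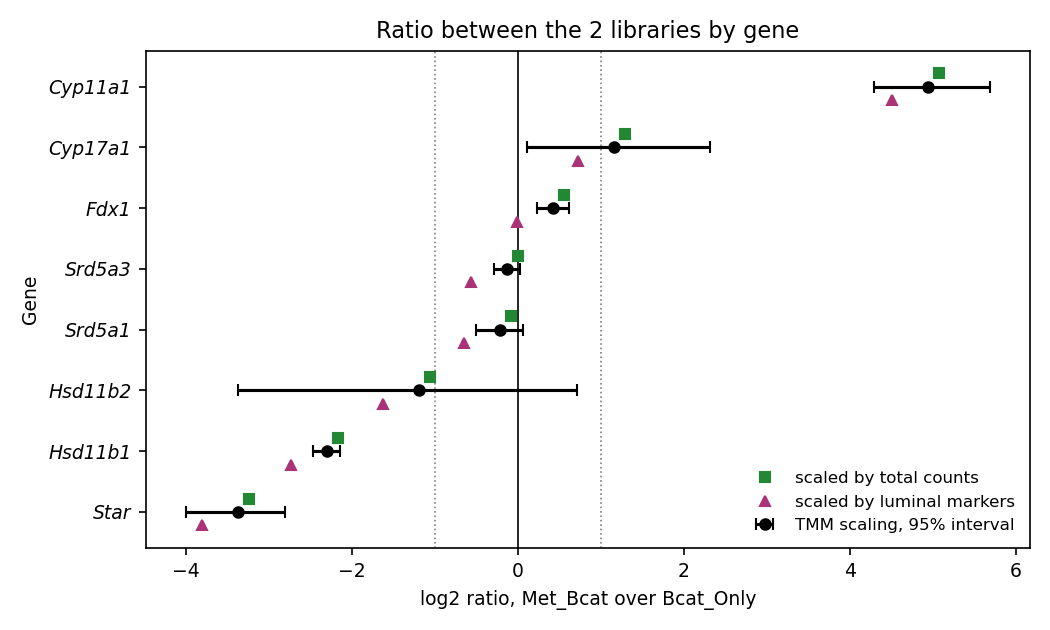
The log2 ratio of Met_Bcat over Bcat_Only for the 8 genes with reads in both libraries. Black points with bars give the TMM-scaled ratio and its 95% exact interval, squares and triangles the same ratio under 2 other scalings, and dotted lines mark 2-fold. Cyp11a1 stands far to the right and Star and Hsd11b1 to the left under each scaling shown, while Fdx1 comes to lie at 0 under scaling to luminal markers.

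The RNA levels of Star, of cholesterol delivery, and Cyp11a1, of the first cut of cholesterol, differed in opposite directions. Cyp11a1 (ENSMUSG00000032323, mm9 chromosome 9, 57862820 to 57874827, plus strand) was counted 19 times in the Bcat_Only library and 668 times in that of Met_Bcat. Its level was 0.581 RPKM (0.350 to 0.907) in Bcat_Only and 17.9 RPKM (16.5 to 19.3) in Met_Bcat. In Bcat_Only this lay above 26.1% of the genes with reads, and in Met_Bcat above 80.7%. The interval of the fold difference ran from 19.5 to 51.4, and the ratio was the 59th highest of the 14354 genes tested. The 19 reads of Bcat_Only limit its precision.

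RefSeq lists a pair of starts for Cyp11a1 on GRCm38.p6, a later build than the mm9 of the counts, and the counts do not tell which was used. Both are shown because Cyp11a1 had the highest ratio of the genes described, from 250 bases before each start to 30 after it. Capitals mark matches, on either strand, to any of 6 motifs searched. The letters AGGTCA form the core of many nuclear receptor sites, and the letters TCAAGG open the site of the steroidogenic factor NR5A1, so that these motifs share letters where that site is whole. Sites of GATA factors were searched as AGATAA, those of the beta-catenin partners TCF and LEF as CTTTGAT, the cAMP response element as TGACGTCA, and the core of sites of the glucocorticoid receptor and its close relatives as AGAACA.
Cyp11a1 upstream start, chr9:57997774-57998053, plus strand: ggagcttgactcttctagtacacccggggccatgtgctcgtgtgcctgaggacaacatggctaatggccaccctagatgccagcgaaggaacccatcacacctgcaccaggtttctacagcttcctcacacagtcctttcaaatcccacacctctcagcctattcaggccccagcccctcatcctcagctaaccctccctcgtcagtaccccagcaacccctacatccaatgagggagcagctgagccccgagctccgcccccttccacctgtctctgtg
Cyp11a1 downstream start, chr9:58014702-58014981, plus strand: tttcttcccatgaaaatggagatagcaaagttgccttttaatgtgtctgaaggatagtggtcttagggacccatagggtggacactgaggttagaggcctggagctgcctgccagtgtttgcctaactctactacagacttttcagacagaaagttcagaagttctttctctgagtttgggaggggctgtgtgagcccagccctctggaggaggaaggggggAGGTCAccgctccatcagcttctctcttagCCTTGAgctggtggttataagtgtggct
The downstream window held AGGTCA 28 bases before the start and TCAAGG, on the minus strand as CCTTGA, from 2 bases after the first transcribed base, and the upstream window held none of the 6. Among all 32851 RefSeq promoter windows of the same 280 bases, 15.3% had the AGGTCA motif, whereas 13.7% held TCAAGG. The share was 10.7% for the GATA letters, 3.56% for those of TCF and LEF, 1.74% for the cAMP element and 17.8% for the glucocorticoid receptor core. Promoter entries were found for 6 of the 10 genes, and beside Cyp11a1 matches occurred only in that of Fdx1, which held TCAAGG at 2 places. A match describes the letters and does not show binding.

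Star (ENSMUSG00000031574, chromosome 8, 26918946 to 26925782) was read 255 times in Bcat_Only but 28 times in Met_Bcat. Its level was 4.10 RPKM (3.61 to 4.64) against 0.394 RPKM (0.262 to 0.569), a 10.4-fold difference with an interval of 7.04 to 16.0. Star had the 693rd lowest ratio of all genes tested. The order of the pair was therefore turned: per length, Star stood 7.06-fold (4.43 to 11.9) above Cyp11a1 in Bcat_Only, and Cyp11a1 stood 45.3-fold (31.1 to 68.8) above Star in Met_Bcat.

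Fdx1, the electron donor of mitochondrial steroid P450 enzymes and also of other mitochondrial reactions (ENSMUSG00000032051, chromosome 9, 51751412 to 51771661), was counted 358 times in Bcat_Only and 547 times in Met_Bcat. Its level was 6.26 RPKM (5.63 to 6.95) and 8.37 RPKM (7.68 to 9.10), a 1.34-fold difference (1.17 to 1.53) that was not called. The log2 ratio of 0.42 became −0.015 when libraries were scaled to luminal epithelial markers. Fdxr, the reductase that passes electrons to FDX1, had 147 and 234 reads and a log2 ratio of 0.48 (0.17 to 0.78). Fdx1 stood 2.20-fold above Fdxr per length in Bcat_Only (1.81 to 2.69) and 2.11-fold in Met_Bcat (1.81 to 2.48), so the pair kept nearly the same proportion in the libraries. Cyp11a1 did not keep its proportion to its donor, as Fdx1 was 10.8-fold (6.80 to 18.1) above it in Bcat_Only and Cyp11a1 was 2.13-fold (1.90 to 2.39) above Fdx1 in Met_Bcat.

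Cyp17a1, which encodes the 17-hydroxylase and lyase (ENSMUSG00000003555, chromosome 19, 46741655 to 46747464), was scarcely detected. The counts were 11 and 28 reads, or 0.276 RPKM (0.138 to 0.493) and 0.613 RPKM (0.408 to 0.886). The ratio was 2.23-fold with an interval of 1.07 to 4.95, so the reads allow anything from almost no difference to a large one. In Met_Bcat, Cyp11a1 stood 29.1-fold (20.0 to 44.2) above Cyp17a1 per length.

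**Figure D2:**
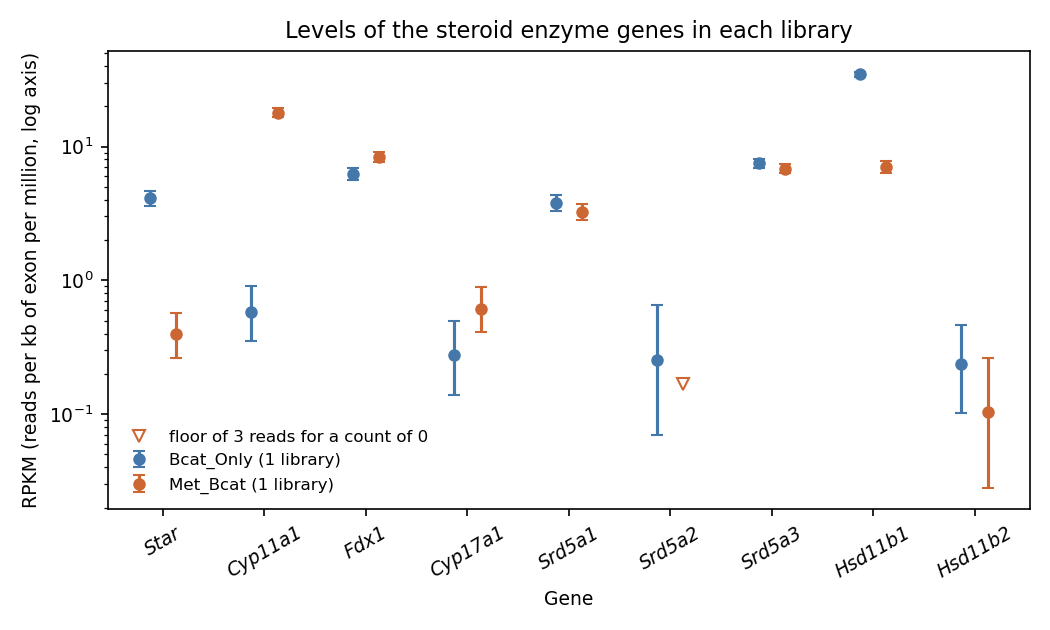
RPKM on a log axis for the 9 genes in each library, as points with exact 95% Poisson intervals, and with an open triangle at the floor of 3 reads for the Srd5a2 count of 0 in Met_Bcat. Cyp11a1 moves from the lower to the upper part of the range and Star the other way, Hsd11b1 is the highest gene in Bcat_Only, and Srd5a1 and Srd5a3 lie close together in the libraries.

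Under TMM the 5-alpha reductase genes differed little or were nearly undetected. Srd5a1, the type 1 enzyme (ENSMUSG00000021594, chromosome 13, 69712327 to 69750320, minus strand), had nearly equal counts, 210 and 206 reads. The levels were 3.78 RPKM (3.28 to 4.32) and 3.24 RPKM (2.81 to 3.71), with a log2 ratio of −0.22 (−0.51 to 0.06). That ratio became −0.65 when libraries were scaled to luminal epithelial markers. The whole span of Srd5a1 overlaps Nsun2 on the opposite strand, which had 2993 and 3781 reads. The strand setting of the counting is not given in the sources used here, so some assignment of reads between these genes cannot be told apart.

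Srd5a2, the type 2 enzyme known from the androgen-responsive prostate (ENSMUSG00000038541, chromosome 17, 74367046 to 74397256), was seen in 4 reads of Bcat_Only and 0 of Met_Bcat. Its level was 0.254 RPKM (0.0693 to 0.651) in Bcat_Only. The count of 0 in Met_Bcat was set to a floor of 3 reads, or 0.142 CPM and 0.167 RPKM, and its exact interval reached 0.205 RPKM. No difference was detectable at this depth. Per length, Srd5a1 stood 14.9-fold (5.71 to 55.0) above Srd5a2 in Bcat_Only.

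Srd5a3, which reduces polyprenol to dolichol, the lipid carrier of N-glycosylation (ENSMUSG00000029233, chromosome 5, 76569296 to 76584529), had 642 and 668 reads. The levels were 7.50 RPKM (6.93 to 8.10) in Bcat_Only and 6.82 RPKM (6.31 to 7.36) in Met_Bcat, with a log2 ratio of −0.14 (−0.30 to 0.02). Under luminal scaling that ratio became −0.57. It was the most abundant of the 3 reductase genes, at 1.99-fold (1.70 to 2.33) the level of Srd5a1 in Bcat_Only and 2.11-fold (1.80 to 2.47) in Met_Bcat. Of the 9 genes of dolichol synthesis and use 0 were called, where 4.42% of all genes tested were called higher and 14.6% lower. Their median log2 ratio was 0.14, with Dhdds, a subunit of the enzyme that builds the polyprenol chain, 1.75-fold higher (1.62 to 1.88). Tecr, a relative of the 5-alpha reductases that works in fatty acid elongation, was 1.18-fold higher (1.11 to 1.26).

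RNA of the glucocorticoid-activating enzyme was lower in Met_Bcat, and that of its inactivating counterpart was close to the limit of detection. Hsd11b1 (ENSMUSG00000016194, chromosome 1, 195047824 to 195090248) gave 1730 reads for Bcat_Only but 400 for Met_Bcat. Its level was 34.7 RPKM (33.1 to 36.3) against 7.01 RPKM (6.34 to 7.73), 4.95-fold lower (4.44 to 5.53). In Bcat_Only it lay above 90.6% of genes with reads and in Met_Bcat above 61.1%. Hsd11b2 (ENSMUSG00000031891, chromosome 8, 108042646 to 108047884) gave 8 and 4 reads, and the interval of this ratio ran from 10.4-fold lower to above 1 (log2 −3.38 to 0.71). H6pd, which supplies the NADPH that HSD11B1 uses in the endoplasmic reticulum, was 2.01-fold lower (1.94 to 2.08) at 457 and 227 CPM, just short of the call. H6pd stood 2.52-fold above Hsd11b1 per length in Bcat_Only and 6.20-fold in Met_Bcat.

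Ordered by level per length, Bcat_Only ran from Hsd11b1 through Srd5a3, Fdx1, Star and Srd5a1 to Cyp11a1, Cyp17a1, Srd5a2 and Hsd11b2. The intervals of Srd5a3 and Fdx1 overlapped there, as did those of Star and Srd5a1 and those among the 4 lowest genes. Met_Bcat ran from Cyp11a1 through Fdx1, Hsd11b1, Srd5a3 and Srd5a1 to Cyp17a1, Star, Hsd11b2 and Srd5a2. The intervals of Fdx1 and Hsd11b1 overlapped, as did those of Hsd11b1 and Srd5a3, and each of the last 4 genes overlapped its neighbour in that order.

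**Figure D3:**
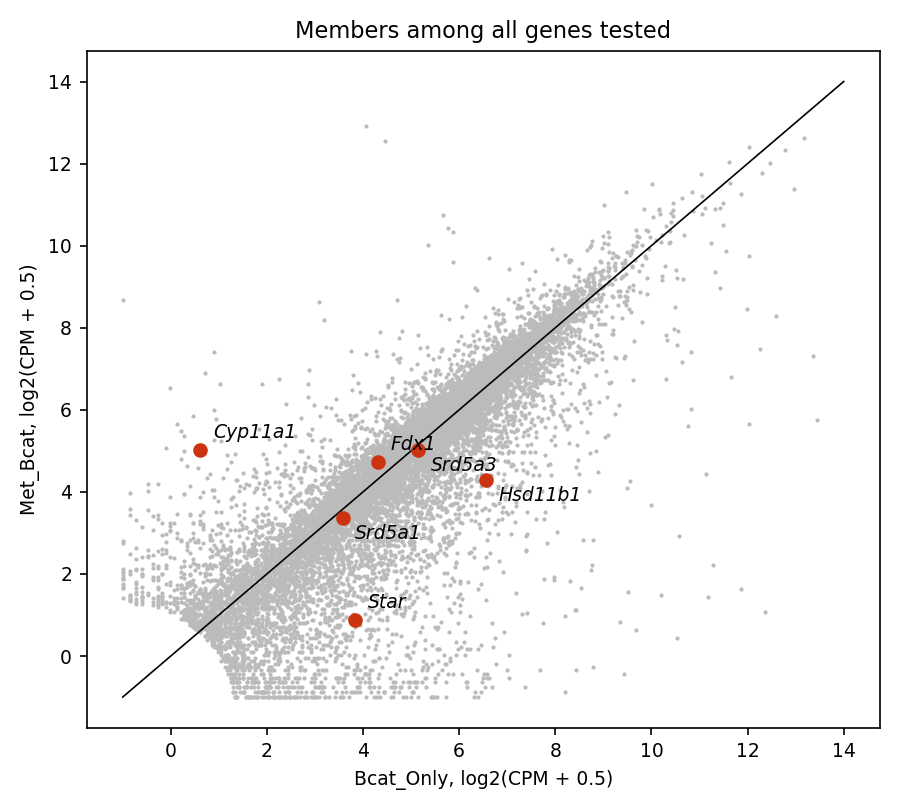
Each point is a gene with a mean of at least 1 CPM, placed by its log2(CPM + 0.5) in Bcat_Only (horizontal) and Met_Bcat (vertical), with the 6 named genes that reached this mean in red and a line of equal level. Cyp11a1 lies at the upper left edge of the cloud, Star and Hsd11b1 below the line, and Srd5a1, Srd5a3 and Fdx1 near it.

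Most markers of adrenal or gonadal steroid-making cells were at or near 0. Of 12 such markers 7 had no read in Bcat_Only and 7 had none in Met_Bcat, and their summed level was 4.56 and 2.85 CPM. Nr5a1, the factor that drives steroid enzyme genes in those glands, had 0 reads in both libraries, as had Lhcgr, Fshr, Cyp11b2 and Hsd3b1. The reads belonged mostly to Mrap in Bcat_Only (71, against 19 in Met_Bcat), an accessory protein of the ACTH receptor that adipocytes also express. Mrap alone of these markers reached a mean of 1 CPM, and it was called lower, where 14.6% of all genes tested were. Cyp11b1, the 11-beta-hydroxylase gene, had 1 read against 22, and the ratio was 19.2-fold (3.11 to 794). Hsd3b6, a 3-beta-hydroxysteroid dehydrogenase gene, had 0 and 11 reads, at least 3.21-fold higher against a floor of 3 reads. Both have near-identical relatives in the mouse genome, so their few reads are uncertain, and neither reached a mean of 1 CPM.

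Markers of stromal, endothelial, fat and immune cells differed in the same direction as Star and Hsd11b1. For the counts that follow, 4.42% of all genes tested were called higher and 14.6% lower under TMM. All 10 fibroblast markers were called lower in Met_Bcat under TMM (9 under total counts, without Thy1), with a summed level of 27108 CPM in Bcat_Only and 1025 CPM in Met_Bcat. All 9 macrophage markers were called lower, with sums of 2190 and 345 CPM, and so were all 8 smooth muscle markers, with sums of 601 and 63.2 CPM. Endothelial markers differed less, with sums of 645 and 330 CPM, and 6 of 8 were called lower. Among these, Pecam1, Kdr and Emcn lost the call under total counts. Of the 8 adipocyte markers 4 were tested and 3 were called lower, with sums of 112 and 26.8 CPM and with Plin1, Cfd, Cidec and Retn at 0 in Met_Bcat and Lep at 0 in both libraries. The adipocyte marker tested and not called was Pparg, with 118 reads against 164. Seminal vesicle markers summed to 6877 and 4.74 CPM. The summed levels of luminal and basal epithelial markers were higher in Met_Bcat, at 4753 and 8203 CPM and at 928 and 2142 CPM, but single markers went both ways. Of 13 luminal markers 5 were called higher and 1 lower (Cldn7). Scaled to their own median 2 were called higher, where 376 of the 14189 genes then tested were. Of 7 basal markers 3 were called higher and 1 lower (Krt15, with 2175 reads against 229). Hsd11b1 is also known from fibroblasts, fat and macrophages. The part of these cell types in the differences of Star, Hsd11b1 and Cyp11a1 was not tested.

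**Figure D4:**
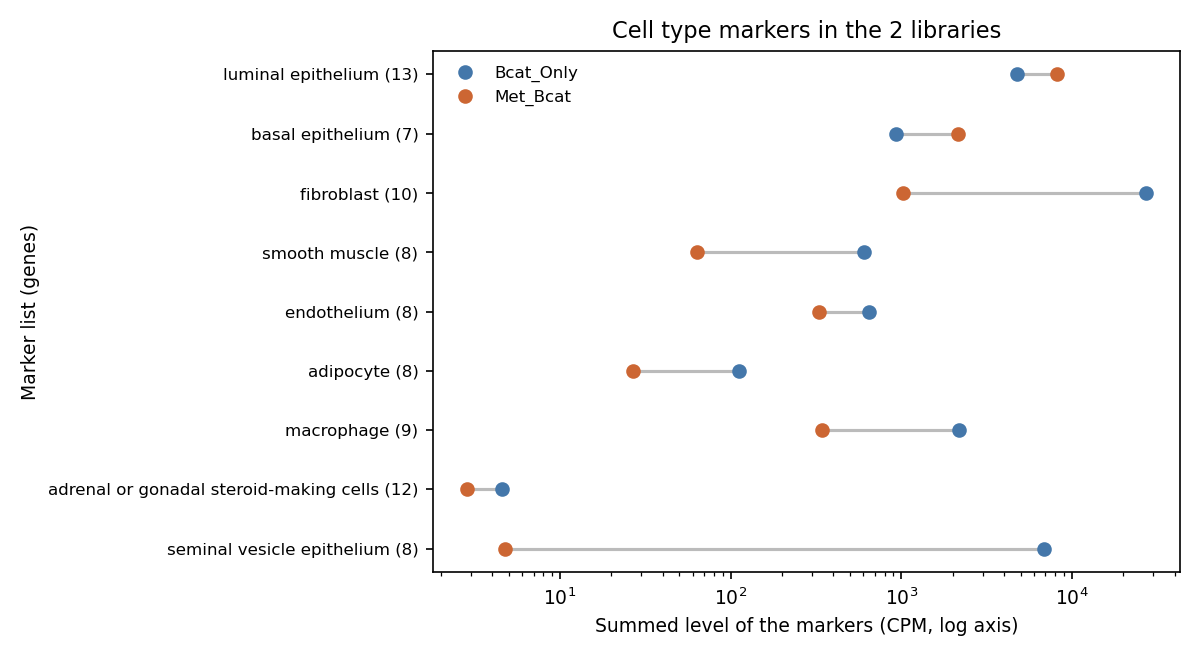
Summed CPM, on a log axis, of the markers of 9 cell types in Bcat_Only (blue) and Met_Bcat (orange), 1 library each, with the number of markers in brackets. Fibroblast, smooth muscle, macrophage, adipocyte and seminal vesicle markers are lower in Met_Bcat, and endothelial markers are lower by less. Luminal and basal epithelial markers are higher, and those of steroid-making gland cells are low in each library.

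Among the genes that supply cholesterol to the mitochondrion, 0 of 14 were called higher and 1 lower, with a median log2 ratio of −0.39. Over all genes tested 4.42% were called higher and 14.6% lower. The gene called lower was Soat2, a cholesterol esterifying enzyme, with 62 reads against 2 (35.5-fold, 9.41 to 299). Npc1, which releases cholesterol from lysosomes, was 1.91-fold lower (1.77 to 2.07) and Lipe, a lipase that frees stored cholesterol, 1.89-fold higher (1.74 to 2.07), neither of them called. Soat1, the other esterifying enzyme, was 1.81-fold lower (1.72 to 1.91), and it was not called either. Under luminal scaling Npc1 and Soat1 were called lower as well. Of the 8 electron and cofactor partners 1 was called, Por, the reductase of P450 enzymes in the endoplasmic reticulum, 2.19-fold lower (2.08 to 2.30). That call was lost under total counts, where Por was 1.99-fold lower (1.89 to 2.10), and H6pd was called under luminal scaling. Cyb5b, a cytochrome b5 of the outer mitochondrial membrane, was 1.85-fold higher (1.80 to 1.91) and Nnt, a mitochondrial source of NADPH, 1.62-fold lower (1.45 to 1.81). Cyb5a, listed under its older symbol Cyb5 and a helper of the CYP17A1 lyase step, had 87.6 and 91.8 CPM.

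Of 7 other P450 genes of steroids 3 were tested, and 2 of them were called lower, where 14.6% of all genes tested were. Cyp1b1, which hydroxylates oestrogens, had 8111 reads against 140, a level 66.3-fold lower (56.1 to 78.9). Cyp7b1, which hydroxylates oxysterols and androgen metabolites at position 7, had 541 and 69 reads, 8.97-fold lower (6.97 to 11.7). The fibroblast, macrophage, smooth muscle, endothelial, adipocyte and seminal vesicle sums given above were also lower in Met_Bcat. The part of these cell types in the P450 differences was not tested. Cyp27a1 had 329 and 346 reads, and Cyp19a1, the aromatase gene, had 0 and 1.

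Of the 18 hydroxysteroid dehydrogenase genes found, 7 were tested. Of these 0 were called higher and 1 lower, where 4.42% and 14.6% of all genes tested were. The lower gene was Hsd17b2, which inactivates testosterone and oestradiol, at 97 reads against 7 (15.9-fold, 7.41 to 40.5). Hsd3b7, of bile acid synthesis, was 2.23-fold lower (1.99 to 2.49) and just short of the call, which it passed under luminal scaling, and Hsd17b7, which also serves cholesterol synthesis, was 1.60-fold higher (1.32 to 1.95). Hsd17b3, the testicular enzyme that makes testosterone, had 4 reads in each library. Of the aldo-keto reductases 3 of 11 were tested, with Akr1b8 2.25-fold lower (2.04 to 2.48) and called, and Akr1c12 at 35 and 111 reads, 2.77-fold higher (1.88 to 4.18) and not called. Under total counts Akr1b8 was no longer called (2.05-fold, 1.85 to 2.26) and Akr1c12 was (3.04-fold, 2.06 to 4.59). Akr1c genes are close relatives of one another, so their reads are uncertain.

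Of the 8 sulfation and sulfatase genes tested 2 were called lower, where 14.6% of all genes tested were. They were Sult1a1, a sulfotransferase of phenols and oestrogens, at 16.1-fold (11.3 to 23.7), and Arsa, a lysosomal sulfatase, at 3.38-fold (2.90 to 3.95). Papss2, which makes the sulfate donor, was 2.10-fold lower (1.83 to 2.42) and not called. Sumf1, which activates the sulfatases including STS, had 57.3 and 54.9 CPM. Sult1e1, the oestrogen sulfotransferase, had 34 reads against 0 and did not reach a mean of 1 CPM.

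**Figure D5:**
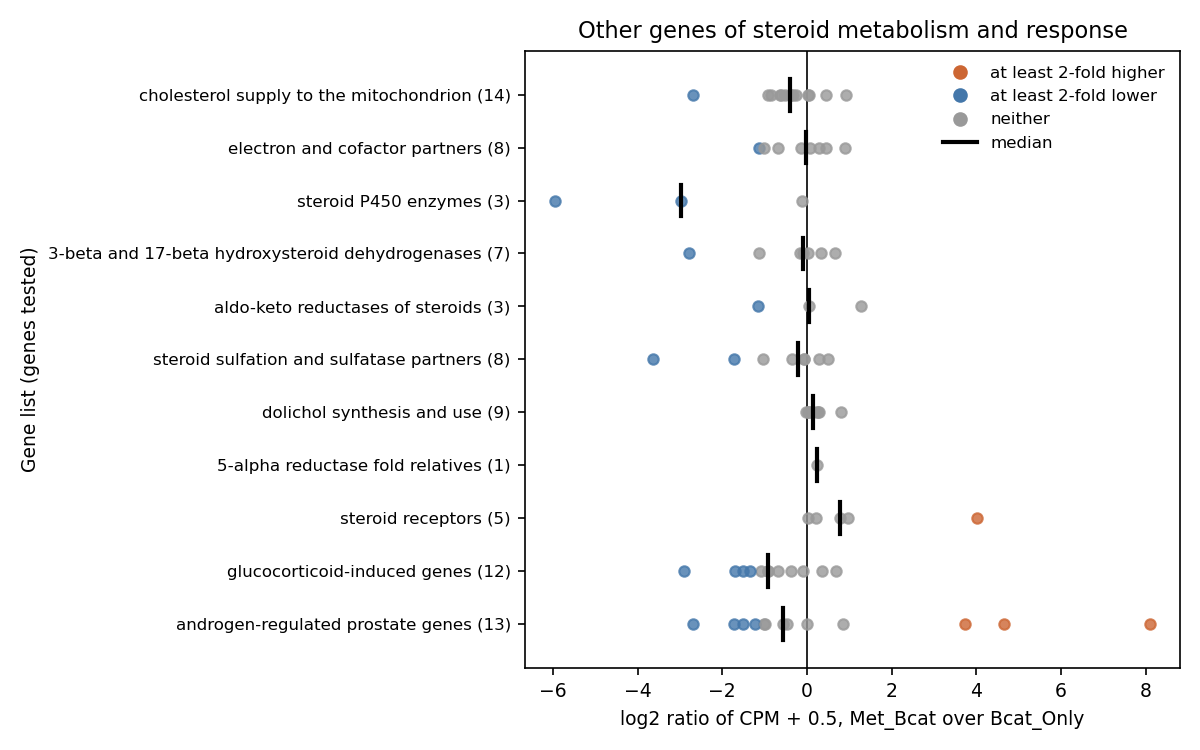
Each point is a tested gene of 11 lists, placed by its log2 ratio of CPM plus 0.5, Met_Bcat over Bcat_Only; colours mark the call and black bars the list medians. Enzyme lists hold called genes on the lower side, the dolichol list none, and the steroid receptor list 1 on the higher side.

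Of the 5 steroid receptor genes tested 1 was called higher in Met_Bcat and 0 lower, where 4.42% and 14.6% of all genes tested were. Esr1, an oestrogen receptor, was 1.73-fold higher (1.65 to 1.82) and not called. Nr3c1, the glucocorticoid receptor, stood at 104 and 105 CPM (log2 ratio 0.01, −0.08 to 0.10). Nr3c2, the mineralocorticoid receptor, had 93 and 217 reads, 2.04-fold higher (1.59 to 2.63). Pgr, the progesterone receptor, whose ligand is made from the product of CYP11A1, had 18 reads against 491 and was called higher, at 23.8-fold (14.9 to 40.6).

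Genes known to respond to glucocorticoids were described beside Hsd11b1. Of 12 tested 4 were called lower and 0 higher, where 14.6% and 4.42% of all genes tested were. Their median log2 ratio was −0.92 against 0.03 over all genes. Under luminal scaling 8 were called lower, with Tsc22d3, Mt1, Mt2 and Nfkbia added, while the count over all genes rose from 2102 to 2855. Dusp1, a MAP kinase phosphatase, was 7.80-fold lower (6.82 to 8.94), Ddit4 3.28-fold (2.99 to 3.60), Fkbp5, a chaperone partner of steroid receptors, 2.85-fold (2.67 to 3.05) and Errfi1 2.56-fold (2.40 to 2.74). Tsc22d3, the glucocorticoid-induced leucine zipper, was 2.11-fold lower (1.998 to 2.24) and just short of the call, whereas Zbtb16 was 1.60-fold higher (1.49 to 1.73) and Klf9 1.28-fold higher. Several of these genes also answer to stress and other hormones, and their cell of origin was not tested.

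Androgen-regulated prostate genes went both ways, with 3 of 13 called higher and 4 lower, where 4.42% and 14.6% of all genes tested were. The lower genes were Spink3, Steap4, Acpp and Fkbp5. Fkbp5 was also counted above among the genes that respond to glucocorticoids, and Acpp lost its call under total counts. Tgm4, the prostate transglutaminase, led the higher genes, with 396 and 127387 reads, and Spink3, a secreted protease inhibitor, was among the lower ones, with 50 and 0. Azgp1, a secreted glycoprotein, was 16.8-fold higher (11.8 to 24.8). Pbsn, probasin, the source of the PB promoter named in the Bcat_Only heading, had 194 and 410 reads, 1.85-fold higher (1.55 to 2.20) and not called. These values stand beside Srd5a1 and Srd5a3 ratios near 1 under TMM, which were lower under luminal scaling, and an Srd5a2 count of 4 reads in all.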

How the data were processed

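The deposited values are raw read counts per gene for 2 libraries, per the file headers, with mm9 coordinates and the exon length used for RPKM. TopHat2 version 2, HTSeq, edgeR and mm9 are named in the submitters' processing notes; settings, strand included, were not given in the sources used here. Each column was matched to its sample by the sample number that the labels give as description. TMM factors (edgeR 4.0.16, R 4.3.3) were 0.955 for Bcat_Only and 1.05 for Met_Bcat. Ratios carry exact Clopper-Pearson intervals conditional on the summed reads (scipy 1.17.1), and no p-value was computed. A count of 0 was given a floor of 3 reads. The calling procedure was tested on simulated data that held counting error only, so that test cannot speak to the spread between animals. The genes described and the 11 pathway and 9 cell type lists were chosen with earlier results of these data known. Of 189 listed symbols 186 were found, 3 of them through the reference's gene names. Named are all members, fixed partners, and up to 4 tested genes per pathway list by the near end of the interval; the other companions were chosen after their values were seen. A few genes so chosen have no values of their own here but remain in the list counts. Alternatives were total counts, DESeq2 1.42.0 size factors, luminal marker scaling, other minimum levels, folds and pseudocounts. Promoters come from RefSeq (GRCm38.p6).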

Additional observations from a re-analysis of the deposited data

How the results depend on the processing

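Under each of 3 other scalings, a minimum mean of 0.2 CPM, and near ends of 1.5-fold and 4-fold, Cyp11a1 was the gene called higher and Star and Hsd11b1 the genes called lower. With a minimum mean of 10 CPM the count of lower members was 1, because Star (mean 7.58 CPM) was no longer tested. Over all genes the count called higher, 635, was 376 under scaling to luminal markers, 1166 at 1.5-fold, 251 at 4-fold and 356 with a minimum of 10 CPM. The count called lower, 2102, was 1086 at 4-fold and 1226 with a minimum of 10 CPM, and scaling to luminal markers gave 2855. Relative to TMM, total counts moved every log2 ratio by 0.13 and luminal scaling by −0.43, which moved the median over all genes tested to 0.16 and −0.39. The log2 ratio of Cyp11a1 ranged from 4.51 to 5.08, that of Star from −3.81 to −3.25 and that of Hsd11b1 from −2.74 to −2.17 over the scalings. Among the 46 ratios of named genes recomputed, 8 changed sign under luminal scaling (among them Fdx1, Hsd17b10, Akr1c13, Dpagt1, Dpm2, Dpm1 and Tecr) and 1 under total counts (Cyp27a1), none of them called. Of the 11 list medians, those of the aldo-keto reductases, dolichol genes and 5-alpha reductase relatives changed sign under luminal scaling, those of the electron partners and hydroxysteroid dehydrogenases under total counts, and that of the aldo-keto reductases with a minimum of 0.2 CPM. The median of the steroid P450 list, −2.98 over 3 genes, was −0.17 with that minimum. Of the other listed genes, total counts ended the calls of Por, Akr1b8, Acpp, Cldn7, Thy1, Pecam1, Kdr and Emcn and added Akr1c12 and Itga6. Luminal scaling ended those of Krt19, Foxa1 and Cd24a and added 12 lower genes, among them H6pd, Soat1, Npc1, Hsd3b7, Papss2 and Tsc22d3. Cyp17a1, Srd5a2 and Hsd11b2 are limited by their few reads. No paired analysis was possible because each genotype had 1 library, and for the same reason no library could be left out.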

Other observations

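Mast cells are another cell type reported to express Cyp11a1, and their markers were looked at after the data were seen. Over 6 markers, the summed level was 23.6 CPM in Bcat_Only and 1.19 CPM in Met_Bcat. Cpa3, the mast cell carboxypeptidase gene, had 141 and 0 reads, Mcpt4, a chymase gene, 67 and 0, and Fcer1a, of the IgE receptor, 31 and 0. Ms4a2, another chain of that receptor, had 13 and 17 reads. The part of mast cells in the difference of Cyp11a1 was not tested.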
